A study of Homo sapiens with 6 samples.

Results

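Clone-named transcripts are annotated genes that carry, in place of a gene symbol, the name of the sequenced genome clone on which they lie, such as AL136529.1. They were selected on name and measured level, as the genes of the deposited expression table whose name is AC, AL or AP followed by 6 digits, a point and a number, and whose mean over the 6 libraries was at least 0.5 CPM, the reads of a gene per M reads of the library. By this rule 262 of the 4101 genes of the table are members, and 56 more clone-named genes had a lower mean. The members at the limit were AC008555.8, AC099343.3 and AC087354.1 inside it, with means of 0.503, 0.517 and 0.529 CPM, and AC006252.1, AC126474.2 and AC004951.4 outside it, with means of 0.496, 0.490 and 0.489 CPM. The table holds only genes that the authors marked as different between the groups, so the members were also chosen by the contrast described below, and counts of members past a threshold are read only beside the same counts over the whole table.

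RNA was sequenced from SH-SY5Y cells, an established human neuroblastoma cell line with wild-type genotype in the labels and a common model of catecholamine neurons. In the METH-treatment group, 3 libraries came from cells given 2 mM methamphetamine (METH), a psychostimulant that releases dopamine and noradrenaline, for 24 h. In the control group, 3 libraries came from cells given phosphate-buffered saline (PBS). The labels record the time as day 0 for all samples, the cells are 1 tumour line without other brain cell types, and nothing says whether the libraries of a group came from separate cultures, so the p-values measure the spread between these libraries, which may be technical. Control libraries keep the numbers of their columns, PBS 10, PBS 11 and PBS 12.

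With the values taken as CPM, 85.7 to 110.77 M reads stood behind a library, a depth inferred from the values. Of these, 153152 to 174055 lay on the members, 0.684 to 0.831% of the reads on the table. In each library 2 to 5 of the 262 members had no more than 3 reads. Of 11 noradrenergic neuroblastoma markers, DDC, GATA2 and CHGB are in the table, at 112 CPM or more in every library, with DDC and GATA2 lower and CHGB higher in METH. Of 4 microglia or blood markers 0 are in it. Since the table holds only genes marked as different, absence from it does not show that a marker was not expressed. VIM was the 1 of 7 Schwann or mesenchymal markers in the table, and it rose from 263 to 474 CPM in the PBS libraries to 533 to 801 CPM in the METH libraries, a shift whose part in the results below was not tested. In bulk RNA a smaller number of cells that make a transcript and less of it per cell cannot be told apart.

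Many human genes outside the protein-coding set give long non-coding RNAs. These are mostly transcribed by RNA polymerase II, are usually less abundant than messenger RNAs and are often kept in the nucleus. Annotators sort them mainly by place. A lincRNA lies between coding genes, an antisense RNA overlaps another gene on the opposite strand, a sense intronic RNA lies inside an intron, and a divergent transcript starts beside a coding gene and runs the other way from a shared promoter. Read-through genes join exons of neighbouring genes in 1 transcript, pseudogenes are decayed or reverse-transcribed copies of genes, and TEC is the class for loci that still await experimental testing, most of them without introns.

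The members did not all bear out a description as non-coding. In GENCODE release 29, which holds 261 of the 262 members, 82 were antisense RNAs, 59 lincRNAs, 52 protein-coding genes, 18 TEC loci, 16 processed transcripts and 13 transcribed unprocessed pseudogenes, and the other classes had 6 members or fewer. Of the 52 coding members, 41 carry the read-through tag of the annotation. A later symbol exists for 81 members, among them NSG1 for AC110814.1, RPL22P1 for AC074033.1 and LINC02810 for AL136529.1. The members lie on 26 chromosomes and unplaced scaffolds, with 29 on chromosome 16, 24 on chromosome 19 and 23 on chromosome 7, and 25 of them share their clone with another member.

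The 3 members with the largest decreases and the antisense RNA AC109597.2, which had the smallest standard error among the 10 largest increases, are shown by sequence. For AL136529.1 (LINC02810) the RefSeq promoter window in build GRCh38.p14, which runs from before the start to 50 bases after it, is chr1:17717323-17717622 on the plus strand. It has neither an E-box (CACGTG) nor a CCAAT box on either strand, and its start lies 114 bases from that of GENCODE. For the other 3 the first 120 bases of the longest GENCODE transcript are given, from transcripts of 1734, 4528 and 927 bases.
AL136529.1 promoter: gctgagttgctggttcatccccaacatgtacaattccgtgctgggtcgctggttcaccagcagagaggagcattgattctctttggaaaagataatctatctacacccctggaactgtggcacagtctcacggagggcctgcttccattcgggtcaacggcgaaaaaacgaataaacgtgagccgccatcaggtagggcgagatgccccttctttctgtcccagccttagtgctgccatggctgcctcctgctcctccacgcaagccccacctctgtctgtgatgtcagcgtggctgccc
AC026688.2 transcript start: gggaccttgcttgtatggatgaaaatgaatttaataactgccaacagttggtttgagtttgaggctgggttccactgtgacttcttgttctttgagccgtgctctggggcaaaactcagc
AC138028.2 transcript start: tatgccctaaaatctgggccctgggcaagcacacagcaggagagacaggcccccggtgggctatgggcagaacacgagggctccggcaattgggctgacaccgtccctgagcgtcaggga
AC109597.2 transcript start: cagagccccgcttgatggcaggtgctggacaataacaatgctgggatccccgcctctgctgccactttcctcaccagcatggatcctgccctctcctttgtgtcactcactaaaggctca

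Under METH the clone-named transcripts were more often lower than higher. In the limma fit of log2(CPM + 0.1), at an adjusted p under 0.1 by the Benjamini-Hochberg method for 4101 genes, 148 members were down-regulated (56.5%), beside 35.8% of all genes of the table, and 69 were up-regulated (26.3%), beside 33.3% of the table. The median log2 fold change was -0.73 in the members and 0.11 over the table. The 3 METH libraries all lay below the 3 PBS libraries in 132 members and above them in 56, while over the table the groups did not overlap in 33% of genes in the lower and 31% in the higher direction. Among called members, 91 fell and 45 rose by at least 1 on the log2 scale. No matching count was made over the table, whose median level was 8.76 CPM, beside 2.14 CPM in the members. Adjusted over all 58735 genes of the annotation, with each gene outside the table given a p of 1, 3 members were called in each direction, AC026688.2, AC138028.2 and AL031963.3 as lower and AC022146.2, AL139260.1 and AC109597.2 as higher, beside 1.56% of the table. Leaving out METH 1, METH 2 or PBS 12 reduced the down-regulated members to 75, 68 and 94. Over the whole table the same fits reduced the down-regulated genes from 1467 to 628, 563 and 854. Leaving out METH 1 or METH 2 reduced the up-regulated members to 33 and 31, and those of the table from 1366 to 491 and 412. In every fit with 1 library left out, 52 of the down-regulated and 26 of the up-regulated members were called. No such count was made over the table, so it is not read as a trait of the members.

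The total over the members did not follow this count. Summed CPM was 1571, 1764 and 1719 in the PBS libraries and 2017, 1887 and 1587 in the METH libraries, so that the groups overlapped. The 10 most abundant members made up 34.9 to 39.8% of the sum in the PBS libraries and 44.4 to 48.8% in the METH libraries. The 91 single-exon non-coding members alone summed to 408 ± 25.2 CPM (SD, n = 3) with PBS and 327 ± 28.6 CPM (SD, n = 3) with METH, without overlap of the groups, whereas the 52 coding members overlapped at 681 ± 59.4 and 861 ± 135 CPM (SD, n = 3 each).

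**Figure D1:**
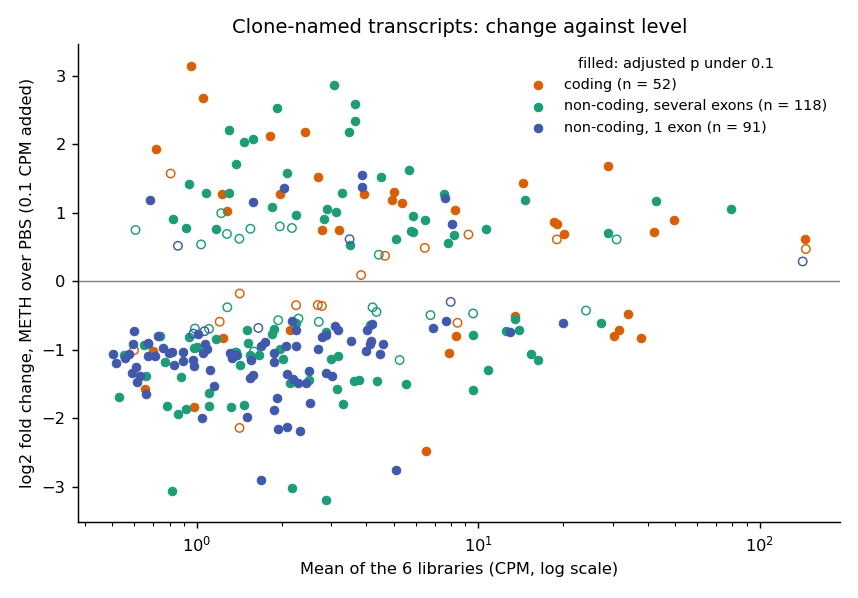
Each point is 1 of the 261 members in the annotation, by its mean over the 6 libraries (CPM, log axis) and its log2 fold change of METH over PBS with 0.1 CPM added, coloured by annotated class and filled where the limma adjusted p was under 0.1. The 91 single-exon non-coding members lie mostly below 0, with a median of -1.04, and the 52 coding members are spread over both sides, with a median of 0.61.

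The direction differed between classes of exon structure, a split that was made after the data had been seen. Of the 91 non-coding members whose annotated exons form 1 block, 77 fell and 7 rose. Of the 118 non-coding members with several exon blocks, 57 fell and 38 rose, with a median of -0.61. The 52 coding members went the other way, with 24 higher and 13 lower, and the 41 read-through genes among them had 20 higher and 9 lower. The 11 coding members without the read-through tag were even, with 4 higher and 4 lower and a median of -0.35. The other genes of the table with a mean of at least 0.5 CPM had the same order in the share that fell but not in the share that rose. The shares that rose were 32.6, 25.8 and 34.7% in these 3 classes of other genes, beside 7.69, 32.2 and 46.2% in the members. In them 28 of 46 single-exon non-coding genes fell and 15 rose, 84 of 194 with several exons fell and 50 rose, and 1100 of 3364 coding genes fell and 1167 rose.

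**Figure D2:**
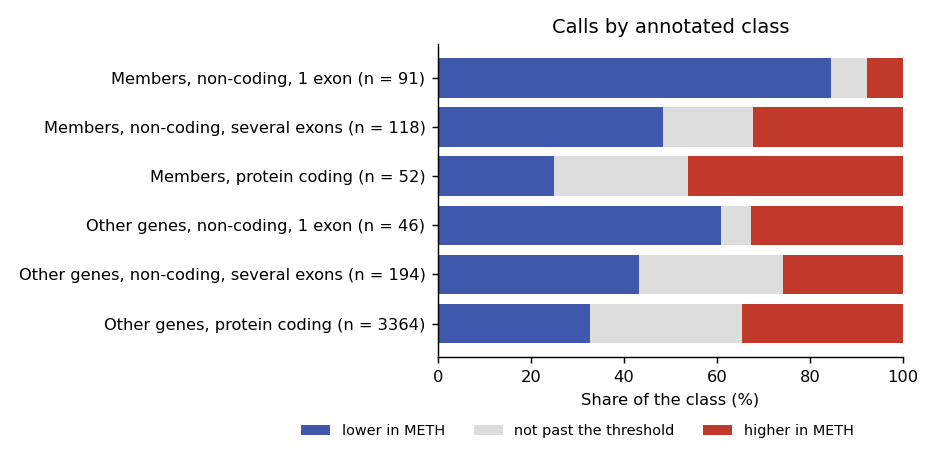
Bars give the share of each class (%) that was lower in METH, not past the limma threshold of 0.1, or higher in METH, for the members and for the other genes of the table with a mean of at least 0.5 CPM. Among the 91 single-exon non-coding members 84.6% were lower, against 60.9% of the 46 other genes of that class and 32.7% of the 3364 other coding genes.

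Level moved with class. The median level per kilobase of exon was 0.999 CPM in single-exon non-coding members, 1.80 CPM in those with several exons and 2.37 CPM in coding members. Within the single-exon members, 23 of 26 with a mean of 0.5 to 1 CPM, 22 of 25 from 1 to 2 CPM, 27 of 31 from 2 to 5 CPM and 5 of 9 at 5 CPM or more were lower. In members with several exons the same 4 ranges had 14 of 19, 18 of 37, 15 of 33 and 10 of 29 lower, and in the highest range 14 of 29 were higher. The part of level in the difference between classes was not tested.

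By annotated type, 45 of 59 lincRNAs, 49 of 82 antisense RNAs, 14 of 18 TEC loci and 6 of 6 sense intronic RNAs were down-regulated, with medians of -0.91, -0.90, -0.98 and -1.08. Up-regulated members numbered 8, 22, 3 and 0 in these types. The lincRNAs and antisense RNAs of the table that carry another kind of name had 35 of 62 and 31 of 64 lower, with medians of -0.73 and -0.75. Genes named LINC and a number, which are lincRNAs that have been given a symbol, were lower in 15 and higher in 12 of 39 cases, and genes named as the antisense of another gene were lower in 36 and higher in 21 of 72. The processed transcripts were even, with 6 of 16 in each direction.

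By place, the 62 members that overlap no other annotated gene had 48 lower and 8 higher, with a median of -0.94. Among them 29 of 33 single-exon non-coding members, 16 of 25 with several exons and 3 of 4 coding members were lower. The part of class in the split by place was not tested, and no such split was made for the other genes of the table. The 108 that overlap a gene only on the other strand had 61 lower and 30 higher, the 33 that overlap one only on the same strand had 16 and 11, and the 58 with overlaps on both strands had 22 and 20. Since it is not known here whether reads were counted by strand, reads from exons that overlap cannot be assigned. In 42 members at least 50% of the exonic bases are shared with a gene on the same strand, and these had 14 lower and 16 higher. Of 45 single-exon non-coding members that share no exonic base with any gene, 40 were lower and 2 higher.

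AL136529.1 (ENSG00000236648), a lincRNA of 4 exon blocks on chromosome 1, was at 5.04, 8.86 and 1.94 CPM in the PBS libraries and at 0.479, 0.770 and 0.140 CPM in the METH libraries. The groups did not overlap, although the PBS values themselves spread widely. AC026688.2 (ENSG00000254293), a lincRNA on chromosome 5, was at 1.58, 1.60 and 1.41 CPM with PBS and at 0.035, 0.099 and 0.178 CPM with METH. Its PBS libraries were close together and its METH libraries held 3, 9 and 19 reads. AC138028.2 (ENSG00000224888), antisense to PIEZO1 on chromosome 16, was at 4.38, 3.99 and 3.32 CPM with PBS and at 0.128, 0.594 and 0.636 CPM with METH. These transcripts were named with their values known, so the values are a description, and an exact permutation test of 3 libraries against 3 cannot give a p below 0.1. The PBS mean was 11.4 times the METH mean in AL136529.1, and the ratio was 14.7 in AC026688.2 and 8.60 in AC138028.2. The log2 fold changes, -3.20, -3.06 and -3.02, depend on the value added, and with 1 CPM added they were -1.96, -1.20 and -1.77.

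Of the 10 largest decreases, 6 were single-exon transcripts and 1 was annotated as coding. AL031963.3, an antisense RNA on chromosome 6, was at 2.19, 3.58 and 3.39 CPM with PBS and at 0.187, 0.352 and 0.449 CPM with METH, which on the log2 scale is a change of -2.90 ± 0.36 (standard error) with a limma adjusted p of 0.0034. AL392083.1, a sense intronic RNA on chromosome 10, fell from 3.999, 2.004 and 3.78 CPM to 0.479, 0.804 and 0.626 CPM, a log2 fold change of -2.15. AC011447.7, a TEC locus on chromosome 19, and AC016394.1, an antisense RNA on chromosome 10, had log2 fold changes of -2.00 and -1.98. In all 4 the METH libraries lay close together and below every PBS library, and the calls held when any 1 library was left out. Those fits use the libraries by which the authors chose the genes of the table, so a call that held is not independent support. Adjusted over the annotation, only AL031963.3 of these 4 was called.

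On the recovered reads edgeR called 10 and DESeq2 called 7 of the 10 largest decreases. AC136621.1 was not called by DESeq2 (adjusted p = 0.118), and for AP002495.2 and AC008764.8 DESeq2 gave no adjusted p. For 3 of the 10 decreases the value rested on few libraries. AP002495.2, a coding gene later named XNDC1N, was at 33.98, 1.42 and 1.58 CPM with PBS and at 0.572, 0.473 and 1.20 CPM with METH, so that PBS 10 stood far above the other libraries. AC008764.8, an antisense RNA on chromosome 19, was at 12.3 CPM in PBS 11 and between 0.187 and 0.533 CPM in the other 5 libraries. Without PBS 11 the log2 fold change of AC008764.8 was -0.70 and not called (limma adjusted p = 0.127), and without PBS 10 that of AP002495.2 was -1.01. Both genes also lost the call without METH 1 or METH 2, and AC008764.8 without METH 3, although the changes without METH 1 in AP002495.2 and without METH 3 in AC008764.8 were still -2.36 and -2.21. AC136621.1, a TEC locus inside SLC6A2, was at 11.6, 5.11 and 7.83 CPM with PBS and at 0.093, 4.06 and 1.84 CPM with METH, and its log2 fold change of -2.76 was -1.46 without METH 1, while its call was lost without PBS 12.

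The 10 largest increases contained 0 single-exon transcripts and 3 coding read-through genes. AC109597.2 was at 0.686, 0.380 and 0.451 CPM with PBS and at 3.71, 2.80 and 3.49 CPM with METH, which on the log2 scale is a change of 2.52 ± 0.31 (standard error) with a limma adjusted p of 0.0034. AL139260.1, the divergent transcript RRAGC-DT, rose from 0.650, 1.13 and 1.81 CPM to 6.53, 5.34 and 6.34 CPM, which on the log2 scale is a change of 2.35 ± 0.36 (standard error) with a limma adjusted p of 0.0065. In both transcripts the METH libraries lay above all PBS libraries by more than the spread within a group. AC011450.1, a lincRNA on chromosome 19, and the read-through genes AL355987.3 and AC093525.2 rose by log2 fold changes of 2.07, 2.18 and 2.11, and the calls of these 5 transcripts held without any 1 library. Adjusted over the annotation, only AC109597.2 and AL139260.1 of these 5 were called.

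The other increases were less even between libraries. AC092691.1 (LINC03051) was at 0, 2.45 and 2.63 CPM with PBS and at 7.40, 6.52 and 2.95 CPM with METH. The antisense RNA AC106897.1 was at 0, 2.43 and 1.11 CPM with PBS and at 5.93, 5.59 and 3.39 CPM with METH. PBS 10 had 0 reads of either transcript although PBS 11 had 213 and 211, and without PBS 10 the log2 fold changes were 1.01 and 1.50 in place of 2.59 and 2.87. AP003419.2, a coding read-through gene, had 0, 0 and 58 reads with PBS and 142, 216 and 113 reads with METH, and its log2 fold change of 3.15 was 1.17 with 1 CPM added and 5.34 with 0.01 CPM added. AL451069.1, a lincRNA, was at 0.740, 0 and 0.805 CPM with PBS and at 2.45, 2.94 and 0.869 CPM with METH, and its log2 fold change of 2.21 was 1.17 without PBS 11. AC092691.1, AC106897.1 and AL451069.1 lost the call without METH 1, with limma adjusted p from 0.110 to 0.167, and without METH 2, and were not called by edgeR, with adjusted p from 0.114 to 0.180. The calls of these 3 and of AP003419.2 were not made by DESeq2 on the recovered reads, with adjusted p from 0.229 to 0.360. AC105285.1 (GALNT7-DT), divergent from a gene of mucin-type O-glycosylation, was at 14.5 CPM in METH 2 and at 2.11 and 1.89 CPM in the other METH libraries, above PBS values of 0.731, 0.599 and 1.07 CPM, and without METH 2 its log2 fold change of 2.19 was 1.25.

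**Figure D3:**
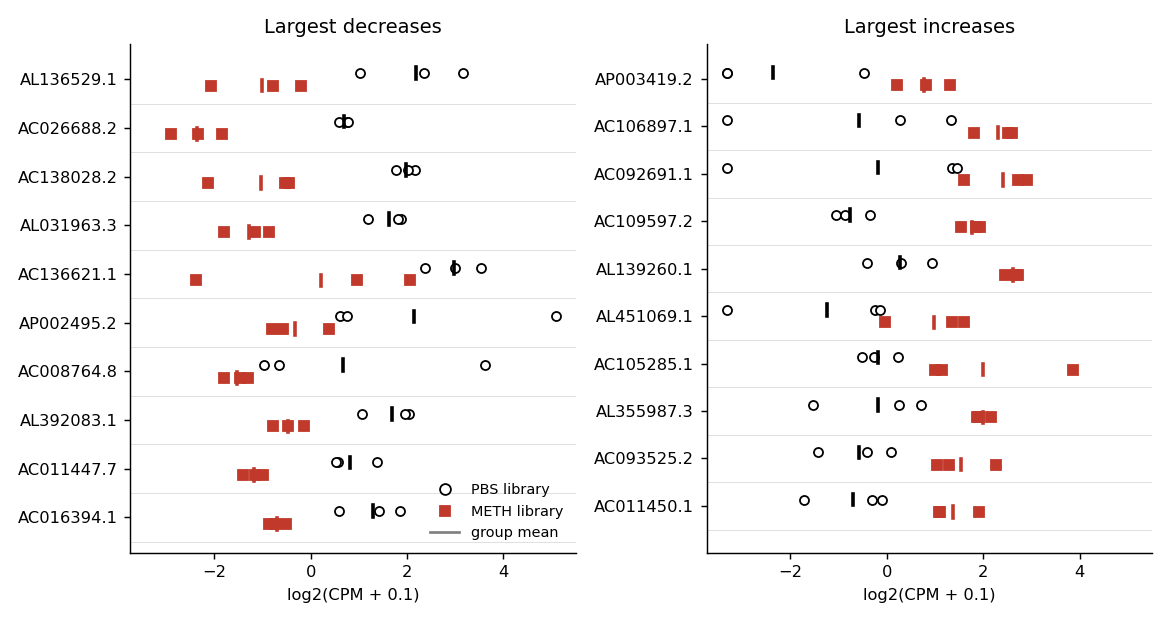
Points give log2(CPM + 0.1) in each PBS library (circles) and METH library (squares) for the 10 members with the largest decrease and the 10 with the largest increase among those past the threshold without overlap of the groups, and short bars give the group means. PBS 10 stands apart in AP002495.2 at 33.98 CPM, PBS 11 in AC008764.8 at 12.3 CPM and METH 2 in AC105285.1 at 14.5 CPM, while circles at the left edge of the increases are libraries with 0 reads.

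Libraries at odds with the others of their group were not confined to these genes. A library that differed by more than 2 on the log2 scale from both others, which were within 1 of each other, was found in 15 members, 4 times for PBS 10, 3 times each for PBS 11, PBS 12 and METH 3, 2 times for METH 2 and 0 times for METH 1. By library these were 0 to 1.53% of the members, beside 0.0975 to 0.415% of the genes of the table. The part of the lower level of the members in this was not tested. The read-through gene AC010323.1, named here after its values were seen, had 792 reads in PBS 12 and 0 in each of the other 5 libraries, and it was not called (limma adjusted p = 0.19).

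The 10 most abundant members were mainly coding and moved less. AC009086.2, a read-through gene that shares 93.8% of its exonic bases with QPRT, an enzyme of NAD synthesis, averaged 122 ± 31.3 CPM in PBS and 169 ± 42.7 CPM in METH libraries (n = 3 each, SD), and it did not pass the threshold. The ribosomal protein pseudogene AC074033.1 (RPL22P1), whose sequence resembles its parent gene so that reads may be shared between them, was at 128 ± 23.5 and 157 ± 32.8 CPM (SD, n = 3 each) and did not pass either. AC110814.1 (NSG1), a protein of neuronal endosomes, rose from 99.3, 118 and 125 CPM to 185, 192 and 149 CPM, which on the log2 scale is a change of 0.62 ± 0.21 (standard error) with a limma adjusted p of 0.047. AC012146.1 (ZNF232-AS1), an antisense RNA, was at 38.2, 66.4 and 50.6 CPM with PBS and at 124, 103 and 90.8 CPM with METH, which on the log2 scale is a change of 1.06 ± 0.25 (standard error) with a limma adjusted p of 0.0198. The METH libraries of NSG1 and ZNF232-AS1 lay above every PBS library.

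AC073896.1, which shares 79.1% of its exonic bases with CNPY2, and AC105052.1, which shares 72.7% with RASA4, had log2 fold changes of 0.89 and 0.72 and were called, whereas RASA4 had 0.40 and was not. AC087632.1, AC005670.2 and AC240274.1 fell, with log2 fold changes of -0.83, -0.71 and -0.47, the first of them across PCLAF, a factor that binds the replication clamp and itself fell by 0.66 on the log2 scale. Per kilobase of exon, AC074033.1 at 346 CPM and AC009086.2 at 239 CPM stood above AL160408.2 at 61.6 CPM and AC073896.1 at 47.0 CPM, while AL136529.1 was at 4.71 CPM and AC138028.2 at 0.453 CPM.

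The genes that members overlap or adjoin were compared with them, since 85 members have such a partner in the table. Over 97 pairs the member and its partner had the same sign of log2 fold change in 74. Of the 64 pairs in which both were called, 47 went the same way, 24 upward and 23 downward, and 17 went opposite ways. Pairs that share exonic bases can share reads. With exonic overlap on the same strand 31 of 36 pairs had the same sign, and with exonic overlap on the other strand 24 of 29. Without any shared exonic base the counts were 2 of 7 on the same strand, 8 of 12 on the other strand and 9 of 13 for adjoining starts of genes that do not overlap. The partners, too, are genes that the table holds because they differ between the groups, and no comparison with unrelated genes was made.

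**Figure D4:**
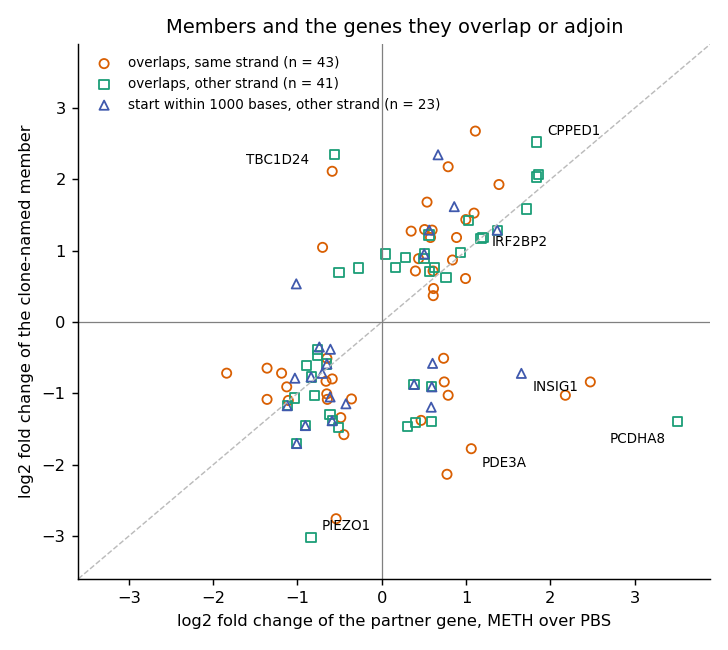
Each symbol is 1 pair of a member (vertical axis) and a gene of the table that it overlaps or whose start it adjoins (horizontal axis), both as log2 fold change of METH over PBS, and the dashed line marks equal change. A pair that both overlaps and adjoins has a symbol for each relation. Most of the 97 pairs lie in the lower left and upper right parts, IRF2BP2 lies on the line at 1.18, and INSIG1 at 1.66, PDE3A at 1.06 and PCDHA8 at 3.51 lie where the member fell.

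Among antisense pairs, AL160408.2 lies wholly within IRF2BP2, a transcriptional corepressor, and all 693 of its exonic bases are exonic in that gene. AL160408.2 was at 25.9, 30.2 and 21.3 CPM with PBS and at 80.2, 50.6 and 47.7 CPM with METH, and IRF2BP2 was at 59.1, 87.7 and 77.1 CPM and at 194, 184 and 130.1 CPM. Both rose, by 1.17 (standard error 0.25) and 1.18 (standard error 0.24) on the log2 scale. A stretch of 30 bases, the first of a run of 631 shared by their transcripts, is shown because reads from it cannot be assigned without strand, and each line is the reverse complement of the other.
AL160408.2: aaattatacagccatgtttatgaagtctac
IRF2BP2: gtagacttcataaacatggctgtataattt

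AC109597.2 and AC022146.2 share no exonic base with the gene they overlap. Whether unspliced RNA of that gene added reads to them was not tested. AC109597.2 lies in an intron of CPPED1, a phosphatase, and CPPED1 was at 8.17, 9.63 and 10.04 CPM with PBS and at 43.2, 34.2 and 24.9 CPM with METH, a log2 fold change of 1.84. AC022146.2, antisense within CERS4, a ceramide synthase, rose by 2.04 on the log2 scale from 0.406, 0.438 and 0.741 CPM to 2.52, 2.21 and 2.51 CPM, and CERS4 rose by 1.84. AC011450.1 shares 132 exonic bases with CD37, a tetraspanin of leukocytes, and the pair rose by 2.07 and 1.86. AC138028.2 shares 695 exonic bases with PIEZO1, a mechanically gated cation channel, which was at 8.99, 22.8 and 7.85 CPM with PBS and at 7.12, 6.99 and 5.55 CPM with METH. PIEZO1 fell by 0.84 on the log2 scale, less than AC138028.2, which fell by 3.02. Here and below, the pairs of AC022146.2, AC112777.1, AC005609.3, AC120057.3, AC144652.1 and AC019069.1 were chosen after their values were seen.

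Other members fell while the gene around them rose. AC112777.1, a processed pseudogene in an intron of PDE3A, a cyclic nucleotide phosphodiesterase, was at 4.78, 2.44 and 4.72 CPM with PBS and at 1.35, 1.05 and 0.794 CPM with METH. PDE3A itself was at 1.27, 1.14 and 1.16 CPM with PBS and at 2.38, 2.38 and 3.08 CPM with METH. AC005609.3, antisense within the protocadherin alpha cluster, fell by 1.39 on the log2 scale, and PCDHA8, a neuronal adhesion protein of that cluster, rose by 3.51 from 0.153, 0 and 0.193 CPM to 1.80, 2.36 and 2.26 CPM. In the TEC locus AC136621.1, which shares 42.4% of its exonic bases with SLC6A2, the noradrenaline transporter, both fell, by 2.76 and 0.54 on the log2 scale.

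Read-through members could differ from the genes whose exons they use. AC093525.2 shares 55.6% of its exonic bases with TBC1D24 and rose from 0.271, 0.967 and 0.655 CPM to 4.72, 2.36 and 1.95 CPM, whereas TBC1D24 fell by 0.59 on the log2 scale. AC120057.3 shares 89.0% with GABARAP, an autophagy protein of the ATG8 family, and rose from 9.54, 13.0 and 19.1 CPM to 56.8, 40.4 and 34.7 CPM, which on the log2 scale is a change of 1.68 ± 0.29 (standard error). GABARAP was much more abundant, averaging 753 ± 231 CPM in PBS and 1070 ± 218 CPM in METH libraries (n = 3 each, SD), and its log2 fold change of 0.54 did not pass the threshold.

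Divergent transcripts share a promoter region with a coding gene, and 3 such regions are shown because the pairs moved differently. The RefSeq windows in build GRCh38.p14 are chr1:38859643-38859942 on the plus strand for RRAGC-DT (AL139260.1), chr7:155297609-155297908 on the minus strand for INSIG1-DT (AC144652.1) and chr2:74833938-74834237 on the minus strand for HK2-DT (AC019069.1). They share 220, 281 and 239 of their 300 bases with the window of RRAGC, INSIG1 and HK2 on the other strand. Capitals mark E-boxes (CACGTG) and CCAAT boxes (CCAAT, or ATTGG on the other strand).
RRAGC-DT: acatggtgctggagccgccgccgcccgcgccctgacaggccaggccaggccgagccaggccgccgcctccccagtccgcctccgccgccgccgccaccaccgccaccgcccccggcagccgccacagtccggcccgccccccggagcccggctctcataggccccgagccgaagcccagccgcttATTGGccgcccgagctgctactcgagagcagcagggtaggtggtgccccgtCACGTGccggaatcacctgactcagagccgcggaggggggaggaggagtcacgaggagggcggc
INSIG1-DT: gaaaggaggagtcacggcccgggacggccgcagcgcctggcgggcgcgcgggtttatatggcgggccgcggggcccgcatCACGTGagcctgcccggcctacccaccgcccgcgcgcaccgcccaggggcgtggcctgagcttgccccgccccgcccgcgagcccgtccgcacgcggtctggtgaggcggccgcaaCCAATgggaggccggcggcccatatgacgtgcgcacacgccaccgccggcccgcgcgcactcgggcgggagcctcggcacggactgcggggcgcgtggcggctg
HK2-DT: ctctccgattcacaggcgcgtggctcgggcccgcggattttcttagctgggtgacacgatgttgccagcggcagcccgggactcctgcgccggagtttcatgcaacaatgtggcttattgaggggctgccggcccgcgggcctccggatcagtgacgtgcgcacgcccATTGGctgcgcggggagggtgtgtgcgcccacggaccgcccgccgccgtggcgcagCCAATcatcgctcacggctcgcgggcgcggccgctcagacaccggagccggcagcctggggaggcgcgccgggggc

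The windows of RRAGC-DT and INSIG1-DT each hold 1 E-box and 1 CCAAT box, and that of HK2-DT holds 2 CCAAT boxes and no E-box. Of all 34943 RefSeq windows of this length, 7.23% hold an E-box and 34.6% a CCAAT box. Of the 54 members with such a window, 3 hold an E-box, 1 of 15 up-regulated, 2 of 30 down-regulated and 0 of 9 others, and 19 hold a CCAAT box. These matches describe letters in the windows.

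At RRAGC, a Rag GTPase that signals amino acid supply to mTORC1, the divergent transcript rose by 2.35 on the log2 scale, while RRAGC was at 2.67, 1.27 and 2.74 CPM with PBS and at 5.65, 2.54 and 2.74 CPM with METH and was not called. The transcript also runs over MYCBP on the other strand, sharing 138 exonic bases, and MYCBP fell by 0.56 on the log2 scale. At INSIG1, a sterol-regulated protein that retains the SREBP complex in the endoplasmic reticulum, the directions were opposite. INSIG1-DT was at 4.42, 3.92 and 6.64 CPM with PBS and at 3.40, 3.88 and 1.87 CPM with METH, which on the log2 scale is a change of -0.72 ± 0.34 (standard error) with a limma adjusted p of 0.096. INSIG1 was at 50.6, 35.7 and 50.9 CPM with PBS and at 171, 169 and 99.9 CPM with METH, which on the log2 scale is a change of 1.66 ± 0.27 (standard error) with a limma adjusted p of 0.0080. The call for INSIG1-DT was lost without any 1 library other than PBS 11, with log2 fold changes from -0.92 to -0.41. At HK2, a hexokinase, HK2-DT fell from 9.39, 8.42 and 10.02 CPM to 6.22, 6.43 and 5.75 CPM, and HK2 fell with it, by 0.59 and 0.65 on the log2 scale, although HK2-DT lost its call without PBS 12 or any 1 METH library.

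Over all members, 99 start within 1000 bases of a start on the other strand, and of these 62 fell and 19 rose. These are 62.6 and 19.2%, beside 56.5 and 26.3% of all members. In the 23 pairs with an adjoining start in which the partner is in the table, both fell in 7, both rose in 4 and the calls were opposite in 5.

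Members of 1 clone that adjoin each other at their starts moved together. AC010980.1 (CT75), a transcribed pseudogene, and AC010980.2, a lincRNA that starts 378 bases from it on the other strand, rose from 1.93, 1.52 and 2.13 CPM to 4.48, 5.76 and 3.89 CPM and from 1.88, 2.03 and 2.31 CPM to 7.44, 5.61 and 3.96 CPM. The lincRNAs AC092171.3 and AC092171.5 fell by 1.12 and 1.17 on the log2 scale, and the pseudogenes AC098934.1 and AC098934.2 by 0.72 and 0.71. Among members of 1 clone that overlap in other ways, AC010655.2 (HILPDA-AS1) and AC010655.4 both share exons with HILPDA, a hypoxia-induced protein of lipid droplets, and fell by 1.08 and 0.65, while HILPDA fell by 1.36. AC012184.2 and AC012184.3, which share 136 exonic bases on opposite strands, fell by 0.80 and 1.03. Of the 25 members on shared clones, 6 were called in every fit with 1 library left out. Over all members, 52 down-regulated and 26 up-regulated ones were.

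Other clones were less uniform. On the clone AC093525 the read-through gene AC093525.2 rose by 2.11 and the antisense RNAs AC093525.6 and AC093525.7 fell by 1.54 and 0.78 on the log2 scale. AL355987.3 rose by 2.18, and AL355987.4, which shares 274 exonic bases with it, had a log2 fold change of -1.03 and just missed the threshold (limma adjusted p = 0.101). AC026471.6, AC134312.1, AC135050.2 and AP002360.2 (EMSY-DT) fell by 0.97, 0.80, 1.03 and 0.73, and the partners on their clones, AC026471.1, AC134312.4, AC135050.1 and AP002360.1, were not called, with log2 fold changes of -0.73, -0.69, 0.75 and -0.35. AL136295.1 and AL136295.4 were not called, at 0.61 and 0.37.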

How the data were processed

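RNA from 3 METH and 3 PBS samples of SH-SY5Y cells was sequenced on the Illumina HiSeq platform. The aligner, counter, strandedness, genome build and annotation are not given in the sources used here. The deposited table has 4101 genes and 1 column per library, headed FPKM. Within each column 100% of the low values were whole multiples of a step (tolerance 0.001), so the deposited values are CPM, counts that the authors scaled to the library total. Tests planned for length-corrected values were run on CPM, and reads were recovered from the steps. The authors' columns of fold change, log2 fold change, p-value and adjusted p-value from DESeq2 were not used.

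The test was limma 3.58.1 in R 4.3.3, with a trend of variance on mean, applied to log2(CPM + 0.1). P-values were adjusted by Benjamini-Hochberg over the table and called under 0.1. edgeR 4.0.16 and DESeq2 1.42.0 on the recovered reads were alternatives. The fits were also run on simulated data in which most genes were unchanged. The table holds only genes marked as different, so those runs do not show how often calls here are false. Types, places and overlaps came from GENCODE 29, promoters from RefSeq and transcripts from GENCODE. Standard deviations cover libraries, and in low members the number of reads limits the precision in addition to the spread between libraries. Members, lists and tests were chosen with earlier results of these data known. Named were the 3 members of the rule, the 10 largest changes in each direction among called members without overlap, the 10 highest means, members on a shared clone, their partners in the table, and the members nearest 0.5 CPM. Other genes, and the split by exon number, were chosen after their values were seen. A marker gene of the list is not reported here. Alternatives were another pseudocount, a filter, no trend, other scaling, each library left out, another threshold or adjustment, and other member sets.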

Additional observations from a re-analysis of the deposited data

How the results depend on the processing

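No paired analysis was possible because the sample titles number both groups from 1 to 3, but the PBS columns carry the numbers 10 to 12 and could not be matched to single samples. The table holds only genes that differed in these libraries, and the precision of the lowest members is limited by their reads, which for AC026688.2 were 3 to 19 in the METH libraries.

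The log2 fold changes of the 53 members named by the rule kept their sign under every alternative tried, and of 786 values 638 stayed on the same side of the threshold, 138 lost the call and 10 gained it. The median log2 fold change of the members, -0.73, was -0.47 with 1 added, -0.78 with 0.01 added, -0.64 with only genes of a mean of at least 1 CPM in the fit, -0.76 after median ratio scaling, -0.87 with edgeR and -0.82 with DESeq2. For members with a mean of at least 1 CPM it was -0.64, for all clone-named rows -0.80 and for members that overlap no other gene -0.94, a set with 8 higher and 48 lower.

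Adjusted over the annotation, the calls were 3 higher and 3 lower among members, 54 higher and 10 lower in the table, 1 lower single-exon non-coding member and 0 higher coding members. That adjustment counts many more genes. At an unadjusted p under 0.05 limma gave 195 members, a count that was not made over the table. At a threshold of 0.05 members had 42 higher and 90 lower, all genes of the table had 696 higher and 783 lower, the single-exon non-coding members 50 lower and the coding members 13 higher.

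With 1 library left out, higher members ranged from 31 to 70 and lower members from 68 to 136, higher genes of the table from 412 to 1551 and lower ones from 563 to 1368. The median of the members ranged from -0.77 to -0.70, lower single-exon non-coding members from 36 to 70, higher coding members from 9 to 24 and pairs of the same direction from 72 to 74. The lowest counts came without METH 1, METH 2 or PBS 12.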
